A study of Mus musculus with 6 samples.

Results

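The genes described here are 7 members of the intermediate filament family, measured in mouse bone marrow mesenchymal stem cells that were grown dense or sparse. They are the simple epithelial keratins Krt7, Krt8, Krt18 and Krt19, the mesenchymal filament gene Vim (vimentin), Nes (nestin) and Des (desmin). They were chosen by name from the gene symbols that the authors' deposited table gives to its probe sets, 7 of 22349 distinct symbols. Earlier results of these data were known when the choice was made. A symbol with several probe sets would have been represented by the one with the highest mean over the 6 arrays, but each of the 7 had 1 probe set, so that this rule decided nothing. All 7 also passed the filter on low values, which left 16762 symbols for testing. The samples were 3 dense cultures, seeded with 2500000 cells, and 3 sparse cultures, seeded with 15000, collected 1, 2 and 3 days after seeding with 1 Affymetrix array for each density and day. All 6 were mesenchymal cells taken from mouse marrow and grown in the same commercial stem cell medium. The labels give no strain, age or animal, and nothing in them says that the arrays of one density came from separate animals. The p-values of the density difference therefore measure how that difference varied between days. Those of a change per day measure how far the arrays lay from straight lines over the days. None of them measures the spread of replicate cultures.

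Intermediate filaments are rope-like polymers of the cytoplasm that give cells mechanical strength. Keratins assemble only in pairs of a type I and a type II chain, so that Krt18 and Krt19 (type I) need partners such as Krt8 and Krt7 (type II), and the pair of Krt8 and Krt18 is the basic filament of simple epithelia. Vimentin is the main filament protein of mesenchymal cells. Nestin cannot form filaments alone and joins vimentin, and it is known from neural progenitors and from perivascular stromal cells of the marrow. Desmin is the filament protein of muscle.

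RefSeq (GRCm38.p6) places Krt7, Krt8 and Krt18 on chromosome 15, Krt19 on chromosome 11, Vim on chromosome 2, Nes on chromosome 3 and Des on chromosome 1. Krt8 and Krt18 lie side by side with 0 protein coding genes between them. The RefSeq promoter table, whose windows hold 250 bases before and 50 bases after a gene's annotated start, matched 6 of the 7 genes, all except Krt19. The windows of 4 genes are shown: those of Krt8 and Krt18, because the genes are neighbours and filament partners, and those of Vim and Nes, because their profiles over the 6 arrays were the most alike among the 7 genes. Capitals mark matches to any of 5 motifs, each searched on both strands.
Krt8, chr15:102004293-102004592, minus strand: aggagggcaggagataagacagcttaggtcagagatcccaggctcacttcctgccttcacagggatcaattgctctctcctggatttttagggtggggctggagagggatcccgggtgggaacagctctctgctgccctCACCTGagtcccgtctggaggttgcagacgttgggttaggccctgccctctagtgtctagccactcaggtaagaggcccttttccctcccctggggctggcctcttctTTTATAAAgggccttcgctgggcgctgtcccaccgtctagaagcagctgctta
Krt18, chr15:102027966-102028265, plus strand: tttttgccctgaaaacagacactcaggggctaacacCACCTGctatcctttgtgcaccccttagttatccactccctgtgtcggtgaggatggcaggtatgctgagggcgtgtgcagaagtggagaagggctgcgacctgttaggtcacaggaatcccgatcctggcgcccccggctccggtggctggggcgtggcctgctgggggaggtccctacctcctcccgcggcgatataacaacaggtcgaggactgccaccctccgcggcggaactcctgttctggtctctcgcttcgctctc
Vim, chr2:13574061-13574360, plus strand: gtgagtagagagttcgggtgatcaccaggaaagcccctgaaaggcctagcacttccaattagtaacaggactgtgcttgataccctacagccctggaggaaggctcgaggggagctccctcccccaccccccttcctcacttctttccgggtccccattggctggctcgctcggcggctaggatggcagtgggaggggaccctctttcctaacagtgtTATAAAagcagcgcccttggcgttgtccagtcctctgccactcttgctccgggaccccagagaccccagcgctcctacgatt
Nes, chr3:87970843-87971142, plus strand: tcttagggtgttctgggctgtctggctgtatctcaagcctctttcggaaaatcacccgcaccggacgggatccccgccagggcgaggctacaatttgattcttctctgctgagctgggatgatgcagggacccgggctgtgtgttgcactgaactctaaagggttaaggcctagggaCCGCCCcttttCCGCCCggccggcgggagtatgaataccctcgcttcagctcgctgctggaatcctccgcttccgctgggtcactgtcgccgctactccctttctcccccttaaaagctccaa
The motifs were the TATA box (TATAAA), the GC box (GGGCGG), the AP-1 site (TGANTCA), the TEAD site (GGAATG) and the E2 box (CAGGTG), which the Snail and Zeb repressors can bind. Of 32851 promoter windows of the same length, 13.6% held a TATA box, 35.7% a GC box, 7.81% an AP-1 site, 14.7% a TEAD site and 20.2% an E2 box. The E2 box was found in 3 of the 6 windows, those of Krt7, Krt8 and Krt18. It begins 111 bases before the start in Krt8, 214 before it in Krt18 and 44 before it in Krt7. The TATA box was found in Vim, 32 bases before the start, and in Krt8, where matches on the 2 strands overlap at the annotated start. The GC box was found in Krt7, Nes and Des, and in Nes both matches lie 62 and 73 bases before the start on the opposite strand. The letters of the AP-1 and TEAD motifs were in 0 of the 6 windows. A match is a description of the sequence and not a measured binding site.

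The arrays covered 35556 probe sets, and the median log2 value of an array was 4.33 to 4.45. The correlation between arrays over the tested genes ran from 0.941 to 0.993. The labelled cell type was checked against marker genes: Pdgfra and Col1a1, genes of stromal cells, had values of 7.35 to 9.53 and 10.2 to 12.2. Of 13 stromal stem cell markers 12 were above the array median on all 6 arrays. The exception was Eng, with 4.11 to 4.52. The leukocyte gene Ptprc had 2.95 to 3.33 and the endothelial gene Pecam1 3.46 to 3.98, both under the array medians, and 6 of 11 leukocyte and 3 of 8 endothelial markers were under the filter. Of the leukocyte and endothelial markers the macrophage gene Cd68, with 4.57 to 4.93, was the only one above the array median on all 6 arrays. Over the 16762 tested genes the median dense minus sparse difference was −0.05 on the log2 scale. Dim genes lay lower: for 3202 tested genes with a mean from 3.32 to 4 the median difference was −0.16 and 81.3% had a difference below 0, and for 2751 genes with a mean from 4 to 5 these were −0.15 and 68.3%. Small negative differences of dim genes are to be read against these values.

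Krt19 had opposite courses at the 2 densities. In dense cultures its log2 value was 6.90 on day 1, 5.99 on day 2 and 4.23 on day 3. In sparse cultures it was 5.38, 7.21 and 7.82 on the same days. Krt19 was thus 2.86-fold higher in dense on day 1, 2.32-fold lower on day 2 and 12.0-fold lower on day 3, with no test on single days. The dense day 3 value lay under the median of its array, 4.42, so that the size of the last difference is uncertain. The groups overlapped, and the mean over the 3 days, −1.09 ± 0.88 (SE, 3 arrays per density), did not pass (limma adjusted p = 0.406). Without the day 3 arrays that mean was 0.15.

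The change per day of Krt19 was tested as a slope difference in one fit over all 6 arrays. The slope was −1.33 log2 units per day in dense and 1.22 in sparse cultures. Their difference was −2.55 ± 0.26 (SE; 95% interval −3.16 to −1.94), with a limma adjusted p of 0.0380. It was the most negative slope difference of the 16762 tested genes, of which 32 (0.191%) passed in either direction and 19 (0.113%) in the negative one. Krt19 was 1 of the 7 filament genes past this test. The call did not hold without the filter on low values (adjusted p = 0.0511), with a filter at the median (adjusted p = 0.0569), with all probe sets tested singly (adjusted p = 0.198) or without the sparse array of day 1 (adjusted p = 0.957), day 2 (adjusted p = 0.0974) or day 3 (adjusted p = 0.316). In all of these fits, and in the 6 others, the slope difference stayed between −3.16 and −1.94. The adjusted p of 0.957 was not particular to Krt19: it was also the highest of Nes, Mcam and Cnn1 with single arrays left out. With all probe sets tested singly no gene passed. In these bulk samples fewer cells that express a gene and less RNA per cell cannot be told apart, here and for every gene below.

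**Figure D1:**
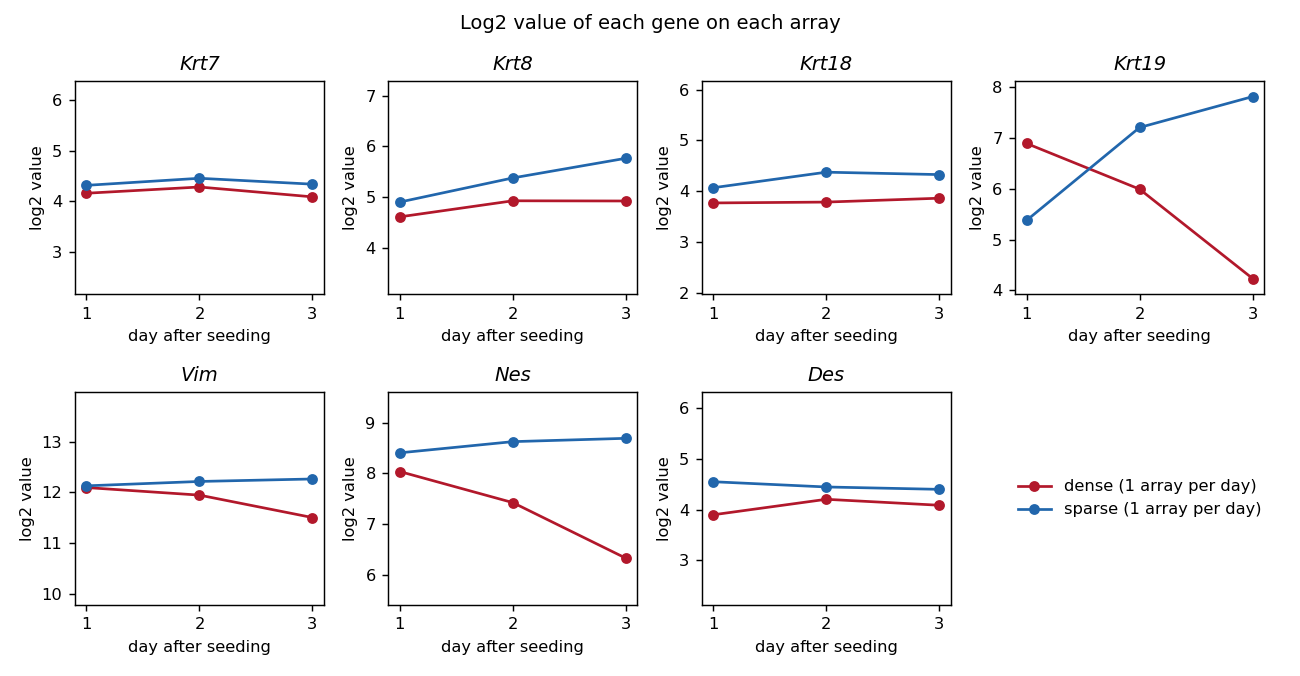
Log2 value (vertical axis, of the same height in every panel) of each of the 7 genes against the day after seeding, 1 point per array, dense in red and sparse in blue. The lines of Krt19 cross between days 1 and 2, those of Nes and Vim separate by day 3, and those of Krt7, Krt18 and Des differ by at most 0.65 on any day.

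Nes had the same order on every day, with the dense value below the sparse one. Dense values were 8.04, 7.43 and 6.33 on days 1, 2 and 3, and sparse values 8.41, 8.63 and 8.69. The 3 dense arrays lay under all 3 sparse arrays, and the spread was larger among the dense (SD 0.87) than among the sparse ones (SD 0.15). The difference was 1.29-fold on day 1, 2.30-fold on day 2 and 5.14-fold on day 3. Its mean, −1.31 ± 0.36 (SE, 3 arrays per density; 95% interval −2.21 to −0.42), did not pass (limma adjusted p = 0.0695). The slope difference of −0.997 ± 0.145 per day (95% interval −1.34 to −0.66) did not pass either (limma adjusted p = 0.0539). Both lay close to the threshold. The density difference passed with the day as a number (adjusted p = 0.0365), without the day 1 arrays (−1.78, adjusted p = 0.0276) and without the day 3 arrays (−0.79, adjusted p = 0.0416). The slope difference passed in 3 of 12 alternatives, and its highest adjusted p was 0.957. It passed when limma's variance prior followed the mean level (adjusted p = 0.0443). It also passed without the dense array of day 1 (adjusted p = 9.13e-04) or of day 2 (adjusted p = 6.48e-05). Fits with an array left out have fewer residual degrees of freedom than the full fit, so that their p-values rest more on the variance prior.

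Vim was bright on all 6 arrays. Dense values were 12.10, 11.95 and 11.50 and sparse values 12.13, 12.22 and 12.27 on days 1, 2 and 3. The groups did not overlap, but the gap between the lowest sparse and the highest dense array was only 0.03. The difference was −0.03 on day 1, −0.27 on day 2 and −0.76 on day 3, the last a 1.69-fold one. Neither the mean, −0.35 ± 0.17 (95% interval −0.77 to 0.06; limma adjusted p = 0.196), nor the slope difference, −0.36 ± 0.13 per day (95% interval −0.67 to −0.06; adjusted p = 0.237), passed. Vim and Nes, whose proteins share filaments, had a correlation of 0.987 over the 6 arrays, the highest among the 21 pairs of these genes. That of Krt19 with Vim was 0.864 and that of Krt19 with Nes 0.815. These are descriptions over arrays that share the density and day effects.

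Krt8 values were 4.61, 4.93 and 4.92 in dense and 4.90, 5.38 and 5.76 in sparse cultures on days 1, 2 and 3. The dense value was below the sparse one on each day, while the groups overlapped, since the dense values of days 2 and 3 lay just above the sparse value of day 1. The difference widened from −0.29 to −0.45 and −0.84. Its mean of −0.53 ± 0.15 (95% interval −0.90 to −0.16) did not pass (limma adjusted p = 0.0720), except with the day as a number (adjusted p = 0.0393). Krt8 had the largest common change per day of the 7 genes in the upward direction, 0.29 ± 0.08 per day over both densities, which did not pass (limma adjusted p = 0.242).

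Krt18, the filament partner of Krt8, had 3.77, 3.79 and 3.86 in dense and 4.07, 4.37 and 4.33 in sparse cultures. All dense arrays were below all sparse arrays, and 5 of the 6 values lay under the median of their array. The mean difference was −0.45 ± 0.12 (95% interval −0.76 to −0.15; limma adjusted p = 0.0674). It passed with the variance prior following the mean level (adjusted p = 0.0495) and with the day as a number (adjusted p = 0.0345). Tested genes with a mean from 4 to 5 had a 5th percentile of −0.49, so that a difference of this size lay within the lower range of these genes. The mean of Krt18, 4.03, was near the edge of that band, and genes from 3.32 to 4 had a 5th percentile of −0.41. The correlation of Krt8 with Krt18 over the 6 arrays was 0.868.

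Krt7 values were 4.16, 4.28 and 4.09 in dense and 4.32, 4.46 and 4.34 in sparse cultures. The groups did not overlap, with a gap of 0.03, and 5 of the 6 values lay under the array medians. The mean difference, −0.19 ± 0.11 (95% interval −0.47 to 0.09; limma adjusted p = 0.274), was close to the median of −0.15 over genes of like brightness. The slope difference was −0.05 ± 0.14 per day (95% interval −0.37 to 0.28).

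Des values were 3.90, 4.20 and 4.09 in dense and 4.55, 4.45 and 4.40 in sparse cultures. The groups did not overlap, and 4 of the 6 values lay under the array medians. Des was the only one of the 7 genes with a positive slope difference, 0.17 ± 0.14 per day (95% interval −0.16 to 0.50; limma adjusted p = 0.609), and its largest difference, −0.65, was that of day 1. The mean of −0.40 ± 0.13 (95% interval −0.74 to −0.07) did not pass (limma adjusted p = 0.103). Of 10 tested muscle markers 1 passed, the actin gene Acta1 (−0.82 ± 0.17, limma adjusted p = 0.0421; 0.0803 with every probe set on its own, and passed in 9 of 12 alternatives), and the muscle regulator Myod1 had values of 4.14 to 4.69, near the array medians.

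**Figure D2:**
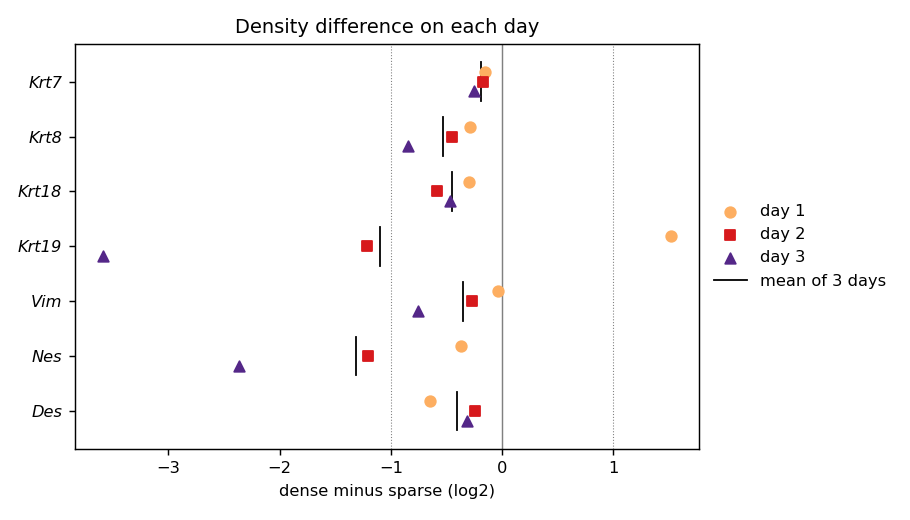
Dense minus sparse difference in log2 units (horizontal axis) of each gene on days 1, 2 and 3, with 1 array per density and day, and their mean as a black bar; dotted lines mark 2-fold. The points of Krt19 run from 1.52 to −3.59 and those of Nes from −0.37 to −2.36, while every point of Krt7, Krt8, Krt18, Vim and Des lies within 2-fold.

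All 7 mean differences were below 0, as were 55.0% of those of all tested genes, and the median of the 7 was −0.45. Krt7, Krt18 and Des had means from 4 to 5, where 68.3% of tested genes had a difference below 0. The other shares in this paragraph are over all tested genes, not over genes of like brightness. In limma's fit 0 of the 7 genes passed for density, where 11.2% of tested genes passed in either direction and 2.90% as lower. With p under 0.05 before adjustment there were 4 of the 7, Krt8, Krt18, Nes and Des, all lower, against 15.2% of tested genes that were lower. The dense value was below the sparse one on 3 of 3 days for 6 of the 7 genes, Krt19 being the exception, against 31.5% of tested genes. The 3 dense arrays lay under all 3 sparse arrays for 5 of the 7, Krt7, Krt18, Vim, Nes and Des, against 19.0%. For 5 of the 7, Krt7, Krt8, Krt19, Vim and Nes, the difference moved downward from day 1 to 2 and again from day 2 to 3, against 20.1%. Since the 7 genes were chosen with earlier results of these data known, these shares describe the set and test nothing.

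On single days 2-fold differences were found for Krt19 and Nes alone among the 7. On day 1 Krt19 was the 1 gene at least 2-fold higher in dense, as were 3.29% of tested genes. On day 2 and on day 3, Krt19 and Nes were at least 2-fold lower, as were 1.29% and 2.94% of tested genes. A common change per day passed for 0 of the 7 genes and 0 of 16762 tested genes in limma's fit (0%), with 1 and 2551 of them at an unadjusted p under 0.05. Krt18 (p = 0.0105, 1.37-fold lower in dense) and Des (p = 0.0155, 1.32-fold lower) were the 2 of the 7 genes with p under 0.05 in the authors' deposited table, against 20.4% of its 35556 probe sets. After Benjamini-Hochberg adjustment of the p-values in the authors' deposited table, 0 of the 7 passed, against 0.0506% of all probe sets.

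**Figure D3:**
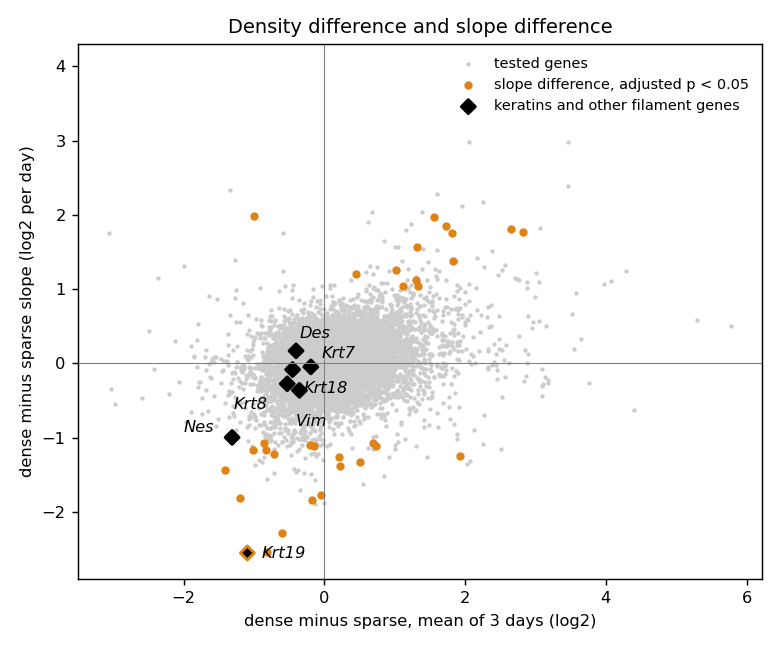
Dense minus sparse difference (horizontal axis, log2) against the dense minus sparse slope (vertical axis, log2 per day) of all 16762 tested genes in grey, with the 32 whose slope difference passed in orange and the 7 filament genes as black diamonds. Krt19, with an orange rim, lies lowest, Nes lies at −1.31 and −0.997, and the other 5 lie in the main cloud.

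Most of the other keratins were faint. The table names 46 further keratin symbols. The filter left 28 of them, and the median level of the 46 over the arrays was 3.50. Values above the array median on all 6 arrays were found for 6 of the 46, the epidermal Krt10, the corneal Krt12, the hair keratins Krt33b, Krt34 and Krt83, and Krt80. The brightest of them, Krt33b, had 5.60, 5.63 and 5.94 in dense and 6.05, 5.80 and 6.33 in sparse cultures. In limma's fit 0 of the 28 passed for density and 0 for the slope difference, and 1 passed for density with the variance prior following the mean level and without the day 1 arrays. All 28 mean differences were below 0, with a median of −0.21 and a range from −0.61 to −0.03, next to the median of −0.16 for the dimmest tested genes. The largest was that of Krt80, an epithelial keratin, with 5.79, 4.99 and 4.98 in dense and 5.90, 5.87 and 5.83 in sparse cultures (−0.61 ± 0.19, limma adjusted p = 0.0852). The hair keratins Krt33a (−0.41) and Krt35 (−0.39) and the injury-induced Krt6a (−0.39) followed without passing.

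Of 15 other intermediate filament genes 13 were tested, and 1 passed for density. This was Nefh, the heavy neurofilament chain, with 4.55, 4.54 and 4.62 in dense and 4.94, 5.17 and 5.18 in sparse cultures (−0.52 ± 0.12, limma adjusted p = 0.0486), and its call held in 6 of 11 alternatives. All 13 differences were below 0, with a median of −0.20. The nuclear lamins Lmna and Lmnb1, which line the nuclear envelope, had a course like that of Nes in dense cultures. Lmnb1 was 8.65, 8.18 and 7.16 in dense and 8.21, 8.59 and 8.51 in sparse cultures (slope difference −0.89 per day, limma adjusted p = 0.0748). Lmna was 10.03, 9.78 and 9.07 in dense and 9.99, 10.16 and 10.07 in sparse cultures (slope difference −0.52 per day, adjusted p = 0.152). The filament-binding Sync had a density difference of −0.32 and did not pass (adjusted p = 0.137).

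Linker and junction genes did not pass in the fit described here. Among 12 plakins and other filament linkers 0 passed in limma's fit for density or slope, and their median density difference was −0.13. Their largest differences were those of Dst, a linker of filaments to the membrane and cytoskeleton (0.47), Nudc (−0.47), the cornified envelope gene Evpl (−0.39) and Dsp, desmoplakin, which ties keratins to desmosomes (−0.39). Of 15 desmosome genes 8 were under the filter, all of them desmogleins or desmocollins, the cadherins of desmosomes. Dsc1 was the only desmosomal cadherin tested, with 6.38 to 6.68 over the 6 arrays. The 7 tested desmosome genes had a median of −0.41 and 0 passed. The plakophilins Pkp2 (−0.69 ± 0.27, limma adjusted p = 0.141) and Pkp4 (−0.67 ± 0.18, adjusted p = 0.0643) led them, and plakoglobin, Jup, had −0.44 ± 0.12 (adjusted p = 0.0621). These calls moved with the processing: 2 desmosome genes passed for density after renewed quantile normalization, with the day as a number and without the day 1 arrays, and 1 without the day term. Of the linkers 1 passed with the day as a number and without the day 3 arrays. Leaving out a single dense array gave 0 to 1 desmosome genes and 0 to 2 linkers past the slope test.

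Of 20 epithelial markers Cldn3, a claudin of tight junctions, was the only one above the array median on all 6 arrays. Of the 20, 13 passed the filter, 0 passed limma's test for density or slope, and the median density difference was −0.24. The epithelial cadherin Cdh1 had 3.68 to 3.94 over the 6 arrays and Epcam 3.12 to 3.66. Cldn3 had 4.63, 4.79 and 4.81 in dense and 4.97, 5.34 and 5.37 in sparse cultures, the largest density difference of the list (−0.48 ± 0.12, limma adjusted p = 0.0570). After renewed quantile normalization and with the day as a number 1 epithelial marker passed for density. The mean level of the list was 3.48 to 3.60 over the dense and 3.62 to 3.88 over the sparse arrays. Mesothelial cells also carry simple keratins: their list had 9 genes, 6 of them tested, 0 passed, and its mean level was 3.65 to 3.68 over the dense and 3.72 to 3.81 over the sparse arrays. Of these, 2 were above the array median on all 6 arrays: mesothelin, Msln, with 5.82, 5.63 and 5.05 in dense and 5.37, 5.36 and 5.19 in sparse cultures, and Wt1, with 4.56 to 4.70. The slope difference of Msln was −0.29 per day (limma adjusted p = 0.355). The part of either cell type in the keratin values was not tested.

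Among regulators of the epithelial state, 2 of 6 transcription factors of the epithelial to mesenchymal transition were higher in dense cultures. Snai2, a Snail repressor that binds E2 boxes, was 7.89, 8.47 and 8.26 in dense and 6.54, 6.53 and 7.05 in sparse cultures (1.50 ± 0.17, limma adjusted p = 0.0123). Zeb2 was higher by 0.64 ± 0.12 (adjusted p = 0.0338). Of 9 genes for regulators of simple and stratified epithelium 1 was higher and 2 lower. Trp63, the master regulator of stratified epithelium, was 6.51, 6.81 and 7.71 in dense and 5.01, 4.77 and 4.77 in sparse cultures (2.16 ± 0.27, adjusted p = 0.0138). Tead4, a partner of YAP that acts in trophectoderm, was lower by 1.02 on the log2 scale (−1.02 ± 0.12, adjusted p = 0.0135), and Klf5 had −0.78 ± 0.12 (adjusted p = 0.0203). For neither list did a slope difference pass in the fit over all 6 arrays. Zeb2 passed in 7 of 12 alternatives, and its adjusted p was 0.0542 after renewed quantile normalization, 0.0659 with every probe set on its own and 0.0536 without the day 1 arrays. Klf5 passed in 9 of 12 and had an adjusted p of 0.0555 without the day term. Without the day 2 arrays limma called 0 of all tested genes for density, these list genes included. Snai2, Trp63 and Tead4 each passed in 10 of 12 alternatives, among them the fits without the day 1 or the day 3 arrays.

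Nestin is also a gene of neural and perivascular cells, and both marker lists were read beside it. Of 7 tested neural and glial markers 1 passed for density, the adhesion molecule gene Ncam1, which was higher in dense cultures (1.01 ± 0.18, limma adjusted p = 0.0289; passed in 8 of 12 alternatives). The neuronal tubulin gene Tubb3 had 7.18, 6.86 and 5.71 in dense and 6.73, 7.34 and 7.33 in sparse cultures. Like Nes it had its lowest value on dense day 3, and its slope difference of −1.04 ± 0.20 per day did not pass (limma adjusted p = 0.0804). Msi1 went the other way, with 5.35, 5.33 and 6.16 in dense and 5.33, 5.37 and 4.87 in sparse cultures. Its slope difference of 0.63 ± 0.19 per day did not pass (limma adjusted p = 0.181). Of the 7 tested neural and glial markers 4 had a slope difference below 0. Of 7 pericyte markers Pdgfrb was higher in dense cultures (1.27 ± 0.20, adjusted p = 0.0213; passed in 9 of 12 alternatives), and Mcam passed for the slope difference. Mcam was 7.47, 6.73 and 5.70 in dense and 5.72, 7.48 and 8.51 in sparse cultures on days 1, 2 and 3, with a crossing of the groups between days 1 and 2 like that of Krt19. Its slope difference was −2.28 per day (limma adjusted p = 0.0146), which did not pass with all probe sets tested singly (adjusted p = 0.198) or without the sparse array of day 1 (adjusted p = 0.957), day 2 (adjusted p = 0.0943) or day 3 (adjusted p = 0.295). Of 8 smooth muscle markers 0 passed for density and Cnn1 passed for the slope difference (limma adjusted p = 0.0483), a call that held in 5 of 12 alternatives. The stromal stem cell markers had 8 of 13 genes higher and 1 lower in dense cultures. The part of these cell types in the Nes values was not tested.

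**Figure D4:**
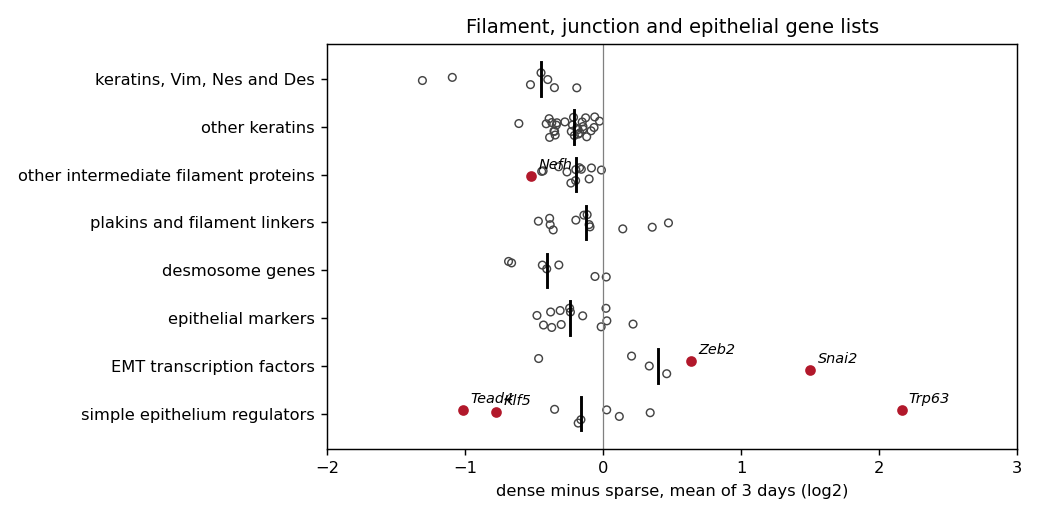
Dense minus sparse difference (horizontal axis, log2) of every tested gene of each list, with filled red points where limma's adjusted p for density was under 0.05 and black bars at list medians; vertical scatter within a list has no meaning. The medians of the first 6 lists lie below 0, between −0.45 and −0.13, and that of the transition factors lies at 0.40.

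The genes whose values ran most like those of Krt19 were Cdr2 (correlation 0.991 over 6 arrays), the small heat shock protein gene Hspb1 (0.983) and the ephrin gene Efnb2 (0.982), among 3302 tested genes with a range of at least 1 on the log2 scale. Hspb1 had 8.50, 8.18 and 6.79 in dense and 7.86, 8.67 and 9.10 in sparse cultures. Nearest to Nes were the heat shock cochaperone gene Dnajb1 (0.995), Cars2 (0.992) and Ywhah (0.992). Dnajb1 had 7.98, 7.54 and 7.02 in dense and 8.11, 8.23 and 8.19 in sparse cultures. Nearest to Vim were Khdrbs3 (0.998), the integrin-linked kinase Ilk (0.998) and Gm6682 (0.995).

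The low keratins and Des had other nearest profiles. For Krt8 they were Ccr10 (0.963), the probe set that the authors' deposited table names Mir339 (0.961) and the iron exporter Slc40a1 (0.958). For Krt18 they were Ctsw (0.989), AI836003 (0.981) and Mir692-1 (0.977), and for Krt7 Vash2 (0.974), Ctxn1 (0.960) and Serinc2 (0.952). For Des they were 9330121J05Rik (0.951), Gdf10 (0.939) and Mir341 (0.935). With 6 arrays and so many candidate genes high correlations are found for any gene, and these are descriptions.

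**Figure D5:**
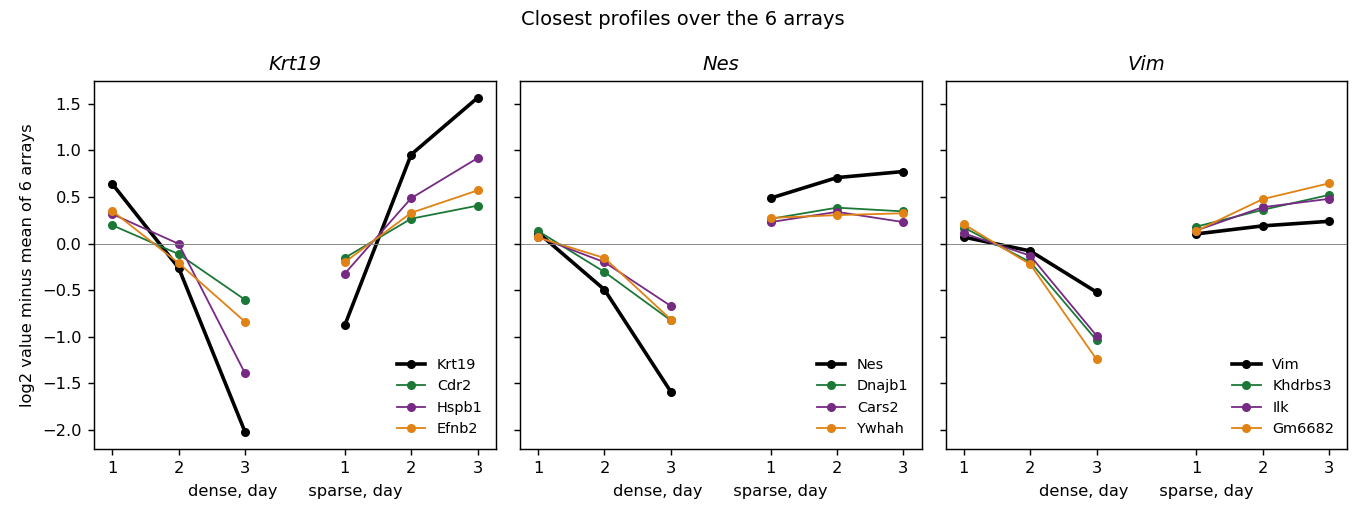
Log2 value minus the gene's mean over the 6 arrays (vertical axis) for Krt19, Nes and Vim in black and the 3 genes with the most similar profile to each in colour, dense days on the left and sparse days on the right of each panel. The dense day 3 array is the lowest for every gene shown. Sparse day 1 lies under sparse days 2 and 3 for most genes of all panels. Krt19 and its 3 nearest genes have dense day 1 above sparse day 1, as does Gm6682 in the Vim panel.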

How the data were processed

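Total RNA of 6 cultures was hybridised to Affymetrix arrays, 1 array per density and day. The deposited log2 values were made by the authors with RMA and Partek, which the submitters' processing notes name without versions; the array model is not given in the sources used here. Differences of dim probe sets can be shrunk by RMA, and whether they were was not tested. Dim tested genes as a group also lay lower in dense cultures, so that the sizes of their folds are uncertain. The authors' deposited table holds a p-value and a signed fold per probe set, per the file headers. Its 6 columns of per-sample values were not used. The number of arrays limits the precision.

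For each symbol the probe set with the highest mean was taken, and symbols with a mean at or above the 25th percentile (3.32) were tested. The fits used limma 3.58.1 with R 4.3.3 (lmFit, eBayes, 2-sided, Benjamini-Hochberg over all 16762 tested genes, adjusted p under 0.05). Density was fitted beside the day as a factor, which left 2 residual degrees of freedom, the slope difference as density by day as a number (2) and the common day trend as density plus day (3). The labels pair dense and sparse arrays by day. After the mean of each density was taken off, same-day arrays correlated at 0.127, 0.0750 and 0.0674 and arrays of different days at −0.150 to 0.109. The steps of these fits were tested on simulated data, the motif search and the counts above the array median were not.

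The 7 genes and all lists were chosen with earlier results of these data known. Named genes are the 7, from each list at most 4 genes taken by the size of their density difference, further members past a test, defining markers of cell types, and the 3 nearest profiles to each of the 7. The fits were repeated with other filters, probe set rules, normalization, variance priors and day terms, and with arrays left out. Sequences are from RefSeq, GRCm38.p6.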

Additional observations from a re-analysis of the deposited data

Results flagged for a closer look

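For 3 of the genes examined the change per day differed between dense and sparse cultures by limma's test of the slope difference. Krt19 had a slope difference of −2.55 log2 units per day (adjusted p = 0.0380), with −1.33 in dense and 1.22 in sparse cultures. Mcam, the gene of a melanoma and pericyte adhesion molecule, had −2.28 (adjusted p = 0.0146), with −0.89 in dense and 1.40 in sparse cultures. Cnn1, the gene of smooth muscle calponin, had −1.11 (adjusted p = 0.0483), with −0.42 and 0.69. Of all 16762 tested genes 32 passed this test. The Krt19 call held in 6 of 12 alternatives and the Mcam call in 8 of 12. Both were lost with every probe set on its own and when any one of the sparse arrays was left out. The Cnn1 call was lost in 7 of 12 alternatives: without the filter (adjusted p = 0.0585), with the filter at the median (0.0643), after renewed quantile normalization (0.0527), with every probe set on its own (0.198) and without any one of the sparse arrays (0.200 to 0.957). Its values were 9.85, 9.62 and 9.01 in dense and 8.02, 8.84 and 9.40 in sparse cultures on days 1, 2 and 3.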

How the results depend on the processing

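Over 222 refits of single filament genes 198 kept the sign and the side of the threshold. For density, 1384 higher and 486 lower genes became 649 and 154 with every probe set on its own, 2184 and 1218 with the day as a number, and 12 and 6 from the authors' deposited table. Lower genes were 816 after renewed quantile normalization. With no replicate block there were 1702 and 516, with 0 filament genes, so that the pairing by day changed none of their calls. Leaving out a day gave 0 to 1717 higher and 0 to 805 lower genes, the 0 without day 2 (2531 at an unadjusted p under 0.05). Of the filament genes 1 passed with the variance prior following the mean level, 3 with the day as a number and 0 to 1 with a day left out. For the slope difference, 13 higher and 19 lower genes became 3 and 2 without the filter, 2 and 2 with the filter at the median, 0 and 0 with every probe set on its own (3569 at an unadjusted p under 0.05), and 31 and 49 with the prior following the mean level, with 0, 0, 0 and 2 filament genes. Leaving out each array in turn, chosen after seeing the data, gave 0 to 915 higher, 0 to 825 lower and 0 to 2 filament genes. The sign turned for the density mean of Krt19 (−2.40 to 0.15), for the slope differences of Des (−0.042 to 0.38), Krt7 (−0.21 to 0.11) and Krt18 (−0.26 to 0.094), and for the day trends of Des (−0.082 to 0.10, −0.039 after quantile normalization), Krt7 (−0.16 to 0.13) and Krt19 (−0.58 to 0.47), none of which passed. The causes were not tested. Leaving out a day leaves no residual degree of freedom for the slope difference. Values of Krt7, Krt18 and Des near the array medians limit what their differences can show.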
